A study of Mus musculus with 3 samples.

Results

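This section describes 33 genes of glucose breakdown and of the response to low oxygen in mouse blood, chosen by gene symbol: the glucose importers, the enzymes from hexokinase to lactate dehydrogenase, the enzymes that tune phosphofructokinase, the pyruvate dehydrogenase kinases, the lactate transporters, the hypoxia-inducible factor Hif1a with 2 of its hydroxylases, and 4 hypoxia targets outside glycolysis. They carry 34 of the 31053 gene identifiers in the files, because Aldoa has 2 identifiers, which were added together. Single-cell RNA-seq was done on blood of C57BL/6J mice 12 h after surgery, with 1 library for each of 3 conditions. The Sham library came from sham-operated mice, the CLP library from mice with CMC and CLP, and the HDCA+CLP library from mice with HDCA and CLP. The labels do not spell out the abbreviations, and the usual readings are taken here: caecal ligation and puncture for CLP (surgery that causes polymicrobial sepsis), the bile acid hyodeoxycholic acid for HDCA, and the dosing vehicle carboxymethylcellulose for CMC. The Sham label names no CMC, so vehicle and surgery cannot be told apart in CLP against Sham. The sources used here do not say how many animals a library holds.

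Glycolysis splits glucose into pyruvate in the cytosol and yields ATP without oxygen. Lactate dehydrogenase turns pyruvate into lactate, which leaves the cell through monocarboxylate transporters. Hif1a is a transcription factor that prolyl hydroxylases (the Egln enzymes) mark for destruction when oxygen is present, and it binds the core sequence ACGTG before many glycolysis genes. Neutrophils rely largely on glycolysis and store glycogen, and activated monocytes and lymphocytes are known to raise glycolytic flux. Transcript counts measure none of these fluxes.

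Promoters of 4 of the genes are shown because the genes behaved differently in the monocyte and neutrophil comparisons below: Ldha and Pgk1 were higher after CLP in monocytes, Eno3 was far lower there, and Bnip3 was lower in neutrophils. Each window holds 250 bases before and 50 bases after the start, from RefSeq on GRCm38.p6, written 5′ to 3′ on the gene's strand. Capitals mark every match to ACGTG on either strand (CACGT on the strand shown), and overlapping matches (CACGTG) are counted separately.
Ldha, chr7:46845554-46845853, plus strand: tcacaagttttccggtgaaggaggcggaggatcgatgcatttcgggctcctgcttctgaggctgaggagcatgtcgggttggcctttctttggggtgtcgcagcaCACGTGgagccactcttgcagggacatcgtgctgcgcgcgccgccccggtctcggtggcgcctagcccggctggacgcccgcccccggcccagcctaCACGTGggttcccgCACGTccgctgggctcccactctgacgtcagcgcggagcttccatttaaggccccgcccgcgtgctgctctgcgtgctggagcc
Pgk1, chrX:106186850-106187149, plus strand: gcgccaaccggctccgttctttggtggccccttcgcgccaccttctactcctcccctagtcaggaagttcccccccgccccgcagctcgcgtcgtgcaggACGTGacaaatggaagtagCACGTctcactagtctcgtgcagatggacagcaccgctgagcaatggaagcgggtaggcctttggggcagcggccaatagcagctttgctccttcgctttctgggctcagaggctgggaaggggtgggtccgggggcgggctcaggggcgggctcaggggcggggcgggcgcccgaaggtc
Bnip3, chr7:138909457-138909756, minus strand: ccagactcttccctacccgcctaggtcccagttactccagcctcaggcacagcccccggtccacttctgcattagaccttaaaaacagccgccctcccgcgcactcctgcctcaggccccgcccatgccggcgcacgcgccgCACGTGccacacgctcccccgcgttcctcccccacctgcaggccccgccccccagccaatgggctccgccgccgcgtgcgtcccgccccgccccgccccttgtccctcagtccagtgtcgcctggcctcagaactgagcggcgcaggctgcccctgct
Eno3, chr11:70656926-70657225, plus strand: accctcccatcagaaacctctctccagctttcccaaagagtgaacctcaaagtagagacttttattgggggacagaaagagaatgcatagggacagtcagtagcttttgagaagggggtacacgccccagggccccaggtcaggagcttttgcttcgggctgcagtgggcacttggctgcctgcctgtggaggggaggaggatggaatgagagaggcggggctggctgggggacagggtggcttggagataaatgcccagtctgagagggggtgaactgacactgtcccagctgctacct
The Ldha window held 5 matches, the Pgk1 window 2, the Bnip3 window 2 and the Eno3 window none. A second Ldha start, at chr7:46846832-46847131, held none. Of the 33 genes, 31 had a window in the table (Slc2a3 and Bnip3l did not), and 22 of these 31 (71%) held the motif in at least 1 window. The motif stood in at least 1 window of 21.8% of all genes in that table and of 29.2% of the genes with 50 or more UMIs in these libraries. A match is a run of letters and does not show binding. Only ACGTG and its reverse complement were searched for. The related form GCGTG was not counted in any window, and the Eno3 window shown holds its reverse complement, CACGC. The lack of a match in Eno3 is thus a lack of ACGTG only.

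After filtering, 6496, 9853 and 10849 cells of the Sham, CLP and HDCA+CLP libraries were kept. Cells were placed by marker UMIs (unique molecular identifiers, 1 per captured transcript) into neutrophil, B, T, NK and monocyte gates, in that order. The libraries shared 17 to 34 cell barcodes per pair. Marker lists that the gates did not use were highest in their own gate in each library. The make-up of the gates differed between conditions. The T gate held 3027, 3034 and 1334 cells in Sham, CLP and HDCA+CLP, of which 27, 255 and 41 also met another gate. Of the T-gate cells, 1206, 515 and 276 had Cd4 UMIs and no Cd8a or Cd8b1 UMIs, and 872, 1005 and 461 had the reverse. The neutrophil gate held 230, 4611 and 8378 cells, although the labels call the cells mononuclear. The median share of granule-gene UMIs (Camp, Ngp, Ltf and Lcn2, genes of immature neutrophils) in its cells was 0.441%, 5.99% and 6.06%. Lcn2 was not confined to neutrophils. In the monocyte gate it stood at 255 CPM in Sham and 6065 in CLP, against 0.353 and 89.7 for Ngp. The granule share therefore need not follow maturity alone. The Sham neutrophil gate also held 3870 CPM of monocyte markers, against 1103 in CLP. Most of the Sham sum was Lyz2, at 3379 CPM against 444 in CLP. Ly6c2 (364.6 CPM in Sham and 614 in CLP) and Nr4a1 (36.2 and 38.1) were higher in CLP, and the rest were lower. The monocyte gate held 265, 658 and 265 cells, of which 3.77%, 35.4% and 39.2% carried 2 or more UMIs of 5 cell-cycle genes, and 53.2%, 87.2% and 92.1% were classical, that is, had more UMIs of Ly6c2 and Ccr2 than of Ace, Cx3cr1, Nr4a1 and Spn. S100a8, a neutrophil transcript, stood in the T gate at 0.0288%, 0.83% and 1.27% of its neutrophil level, a measure of free RNA that was higher in both CLP libraries. The part of these differences in the results was not tested, except where values within a subset are given.

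Levels are given as CPM, a gene's UMIs divided by all UMIs of a gate in a library and multiplied by 1000000. They come from 3′ tags and need no division by transcript length. With 1 library per condition no difference could be tested, and all intervals are 95% intervals of counting error only. Genes with under 50 UMIs over both libraries of a comparison are called not measured, and a gene is counted as higher or lower from a 1.5-fold difference on. Where 3 values stand together they are for Sham, CLP and HDCA+CLP in that order, and ratios are log2 ratios, of CLP to Sham unless said otherwise. CLP against Sham and HDCA+CLP against CLP share the CLP library.

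After CLP the genes did not move as 1 block, and the monocyte gate differed from the neutrophil gate. In the monocyte gate, 11 of the 28 measured genes were higher and 6 were lower, where 16.9% of all measured genes were higher and 30.6% lower, and the median log2 ratio was 0.13 against -0.19 over all genes. In the neutrophil gate, 3 of 28 were higher and 10 lower, where 23.2% of all genes were higher and 31.1% lower, with a median of -0.33 against -0.12. In the B gate, 10 of 25 were higher and 2 lower (background 14.9% and 24.6%), with a median of 0.37 against -0.10. In the T gate, 7 of 30 were higher and 3 lower (14% and 16.2%), with a median of 0.17 against -0.06. With T-gate cells that met no other gate, 2 of 29 were higher and 4 lower, where 11.7% of all genes were higher and 16.8% lower. In the NK gate, 4 of 19 were higher and 4 lower (9.74% and 29.9%), with a median of 0.26 against -0.28. Scaling by median-of-ratios size factors gave 7 higher and 2 lower in NK cells, where 18.4% of all genes were then higher and 15.4% lower. Leaving S100a8 and S100a9 out of the totals gave 5 higher and 8 lower in neutrophils, where 30.3% of all genes were then higher and 23.6% lower. It raised each neutrophil ratio given below by the same amount. Ldha then stood at 1.13, Pgam1 at 0.84, Pfkfb4 at -0.92 and Slc16a3 at -1.03. The share of lower genes in neutrophils was thus near the background, while the share of higher genes there was under it.

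**Figure D1:**
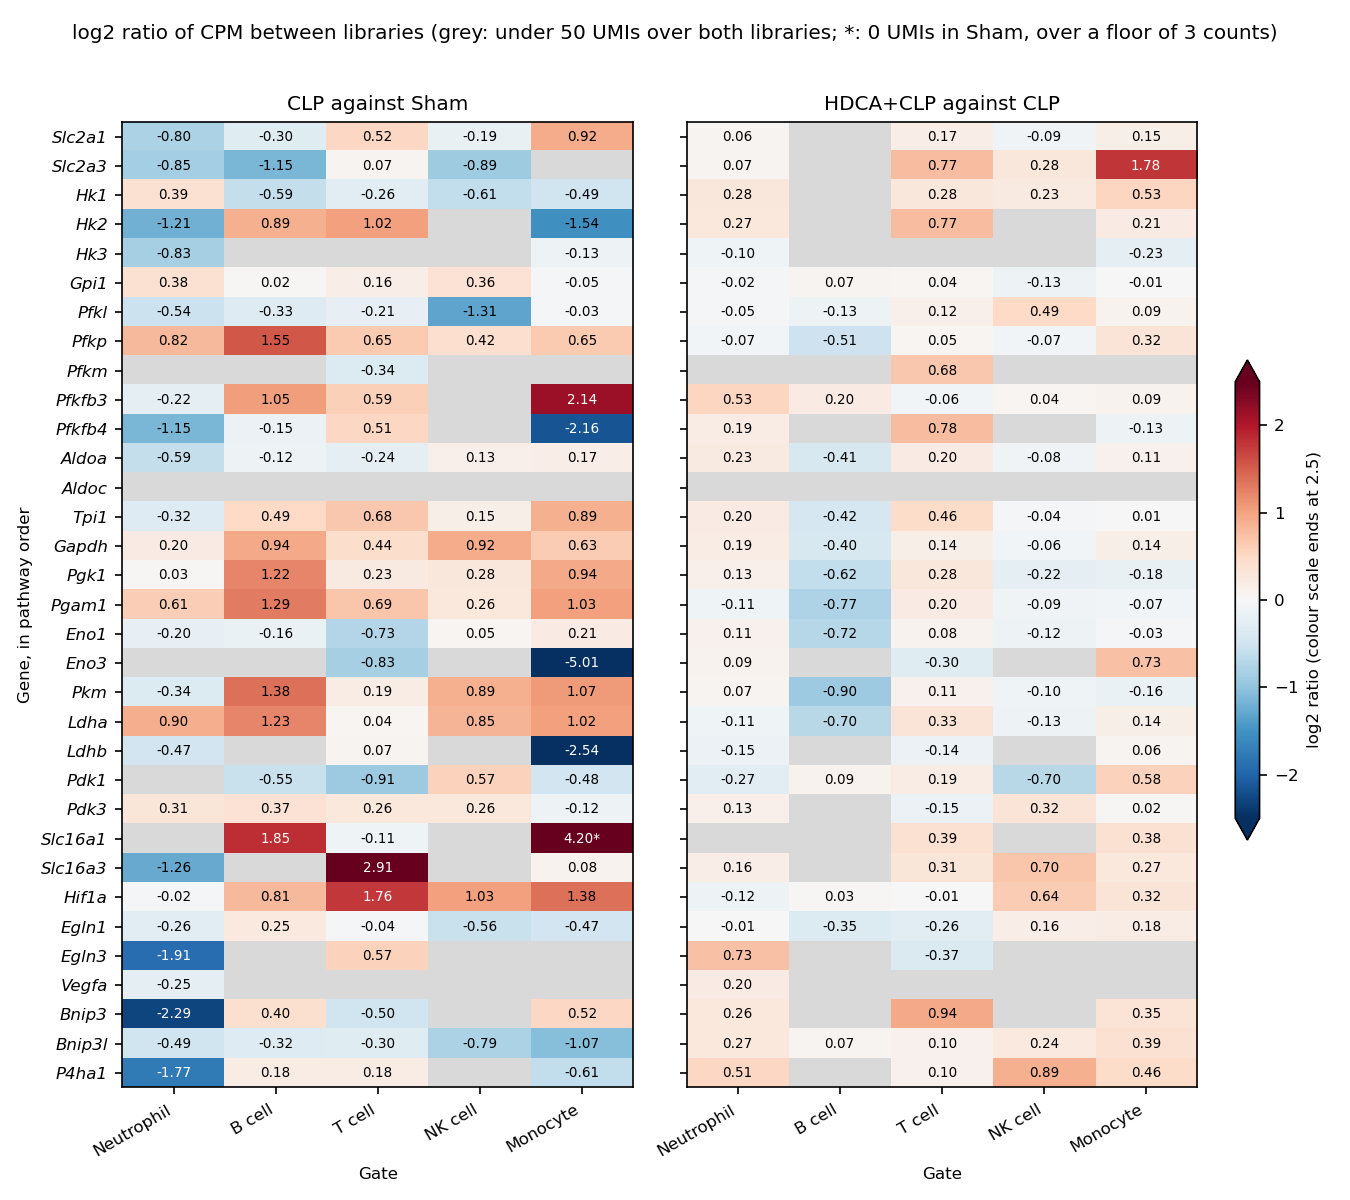
log2 ratio of CPM for each gene (rows, in pathway order) in each gate (columns), CLP against Sham on the left and HDCA+CLP against CLP on the right. Red is higher and blue lower in the first-named library, grey marks genes with under 50 UMIs over both libraries, and the asterisk on Slc16a1 marks a ratio over a floor of 3 counts. The left panel holds ratios down to -5.01 (Eno3 in monocytes), while most of the right panel is pale.

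The 18 enzymes from hexokinase to lactate dehydrogenase, summed, stood in the monocyte gate at 4387, 6509 and 6660 CPM. Neutrophils, the other gate rich in these transcripts, held 4247, 4537 and 4823 CPM. The lymphocyte gates were lower, with 1852, 2039 and 2292 CPM in T cells, 2027, 2873 and 2705 in NK cells and 1473, 2415 and 1704 in B cells. In log2 units, CLP stood above Sham by 0.57 in monocytes, 0.50 in NK cells, 0.71 in B cells, 0.14 in T cells and 0.10 in neutrophils. The B value rested on few cells: 9 of the 284 B-gate cells of the CLP library carried 5 or more UMIs of the monocyte genes Lyz2, Ms4a6c, Csf1r, F13a1 and Fn1 and held 16.6% of that gate's UMIs. Without such cells the B gate stood at 1451, 1696 and 1605 CPM.

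**Figure D2:**
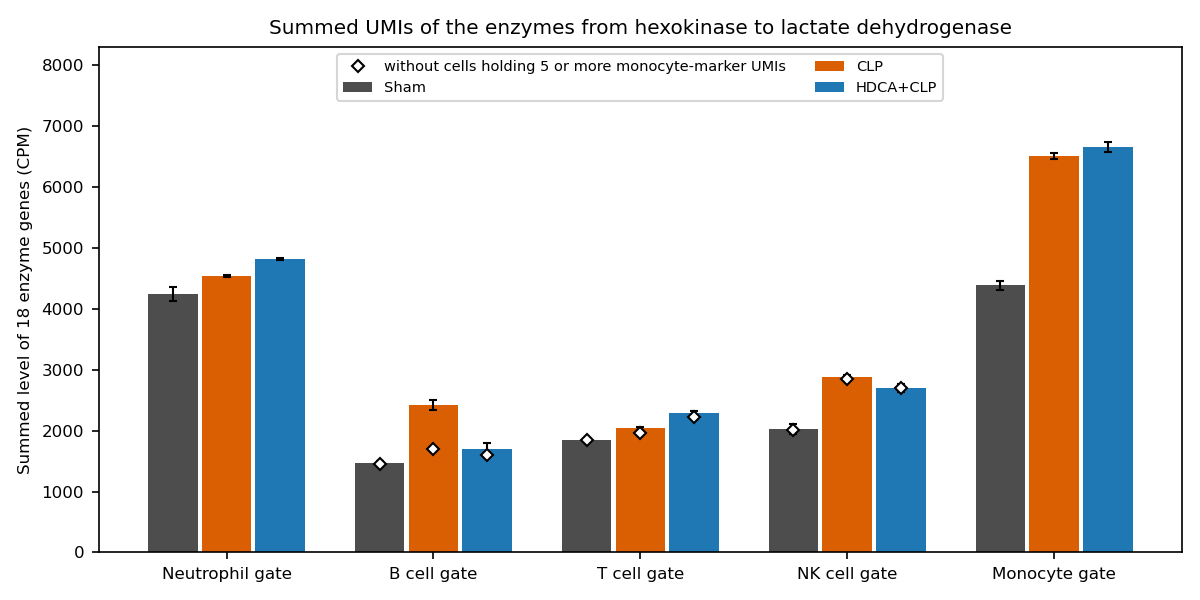
Summed level of the 18 enzyme genes in CPM (bars from 0) by gate and library, with 95% Poisson intervals, and diamonds for the lymphocyte gates without cells holding 5 or more monocyte-marker UMIs. The monocyte bars run from 4387 CPM in Sham to 6660 in HDCA+CLP, and the CLP bar of the B gate falls from 2415 to 1696 CPM once those cells are left out.

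Glucose enters through Slc2a1 (GLUT1) and Slc2a3 (GLUT3, a high-affinity importer). Slc2a3 was mainly a neutrophil transcript, at 333.5, 185.6 and 194.9 CPM, a log2 ratio of CLP to Sham of -0.85 (interval -0.99 to -0.70). That ratio was -0.69 with size factors, -0.62 with S100a8 and S100a9 left out of the totals and -1.10 with the mean over cells. Slc2a1 in neutrophils stood at 64, 36.9 and 38.6 CPM (-0.80, interval -1.13 to -0.44, and -0.57 with S100a8 and S100a9 left out of the totals). The 2 importers thus kept their proportions in neutrophils, with Slc2a3 at 83.9%, 83.4% and 83.5% of their UMIs. In the monocyte gate Slc2a1 went the other way, from 17.3 to 32.8 and 36.4 CPM (0.92, interval 0.49 to 1.39). Slc2a3 there had only 12, 25 and 32 UMIs. In NK cells Slc2a3 was lower after CLP (49.1, 26.5 and 32.1 CPM, -0.89), and in B cells it was lower on 7 UMIs in CLP against 147 in Sham (-1.15). Neutrophil RNA could supply 41.6% of that CLP value at the S100a8 rate. T cells held 12.7, 13.3 and 22.7 CPM.

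Hexokinase traps glucose as glucose 6-phosphate, and the 3 forms differed by gate. Monocytes used chiefly Hk2, the inducible form that docks on mitochondria, and it was lower after CLP, at 94.6, 32.5 and 37.5 CPM (-1.54, interval -1.78 to -1.30). Its share of hexokinase UMIs there went from 68.9% to 48.6% and 48.9%, while Hk1, the housekeeping form, stood at 23.3, 16.6 and 24 CPM and Hk3 at 19.4, 17.7 and 15.1. Neutrophils used chiefly Hk3, the myeloid form, at 98.5, 55.4 and 51.6 CPM (-0.83, interval -1.10 to -0.55). Neutrophil Hk2 was also lower, at 39.6, 17.1 and 20.5 CPM (-1.21), and Hk1 was not (30.3, 39.8 and 48.4 CPM), so that the Hk1 share went from 18% to 35.5% and 40.1%. T cells held almost only Hk1, at 95.9%, 89.6% and 84.8% of hexokinase UMIs, with Hk2 at 1.01, 2.04 and 3.46 CPM (1.02, on 21 UMIs in Sham and 33 in CLP). In B cells Hk2 was higher in CLP on 16 UMIs (0.89, and 0.10 without cycling cells) and Hk1 lower on 11 (-0.59), and in NK cells Hk1 was lower (45, 29.5 and 34.4 CPM, -0.61). Hk2 ratios were negative in the myeloid gates and positive in the B and T gates, and this difference was not tested. T-gate Hk2 lay far under its monocyte level. Cells with 5 or more monocyte-marker UMIs held 0.306% of the T gate's UMIs in Sham and 2.46% in CLP. The part of such cells and of free RNA in the T ratio was not tested.

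Gpi1, the isomerase that makes fructose 6-phosphate, was one of the most abundant members in neutrophils (614, 798 and 786 CPM) and stayed within 1.5-fold in each gate and comparison. Of the phosphofructokinases, which commit the sugar to glycolysis, Pfkp was the main form in most gates. Its ratio was above 0 in all 5 gates after CLP: 1.55 in B cells (24.3, 71.1 and 49.8 CPM), 0.82 in neutrophils (15.2, 26.7 and 25.5), 0.65 in T cells (43.1, 67.6 and 70.1), 0.65 in monocytes (58.3, 91.7 and 114) and 0.42 in NK cells (143, 191 and 183). In monocytes that ratio was 0.34 among classical cells outside the cell cycle. Pfkl, the liver form, was lower in NK cells alone of the 5 gates at 1.5-fold (32.7, 13.2 and 18.6 CPM, -1.31), where the Pfkp share went from 80.3% to 92.7% and 90.4%. Pfkm, the muscle form, was measured in T cells only, at 2.73, 2.16 and 3.46 CPM.

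Pfkfb3 and Pfkfb4 make fructose 2,6-bisphosphate, which switches phosphofructokinase on, and the monocyte gate held mostly Pfkfb4 in Sham and mostly Pfkfb3 in both CLP libraries. Pfkfb3, the form with the strongest kinase activity, stood at 14.1, 62.2 and 66.1 CPM (2.14, interval 1.68 to 2.64). Pfkfb4 stood at 56.5, 12.7 and 11.6 CPM (-2.16). Their sum differed little (0.08), and the Pfkfb3 share went from 20% to 83.1% and 85.1%. In neutrophils Pfkfb4 was lower too (152, 68.5 and 78.3 CPM, -1.15), with Pfkfb3 at 39.6, 34 and 49.2 CPM. Pfkfb3 was higher after CLP in B cells (13.8, 28.6 and 32.8 CPM, 1.05) and T cells (7.19, 10.8 and 10.4 CPM, 0.59).

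**Figure D3:**
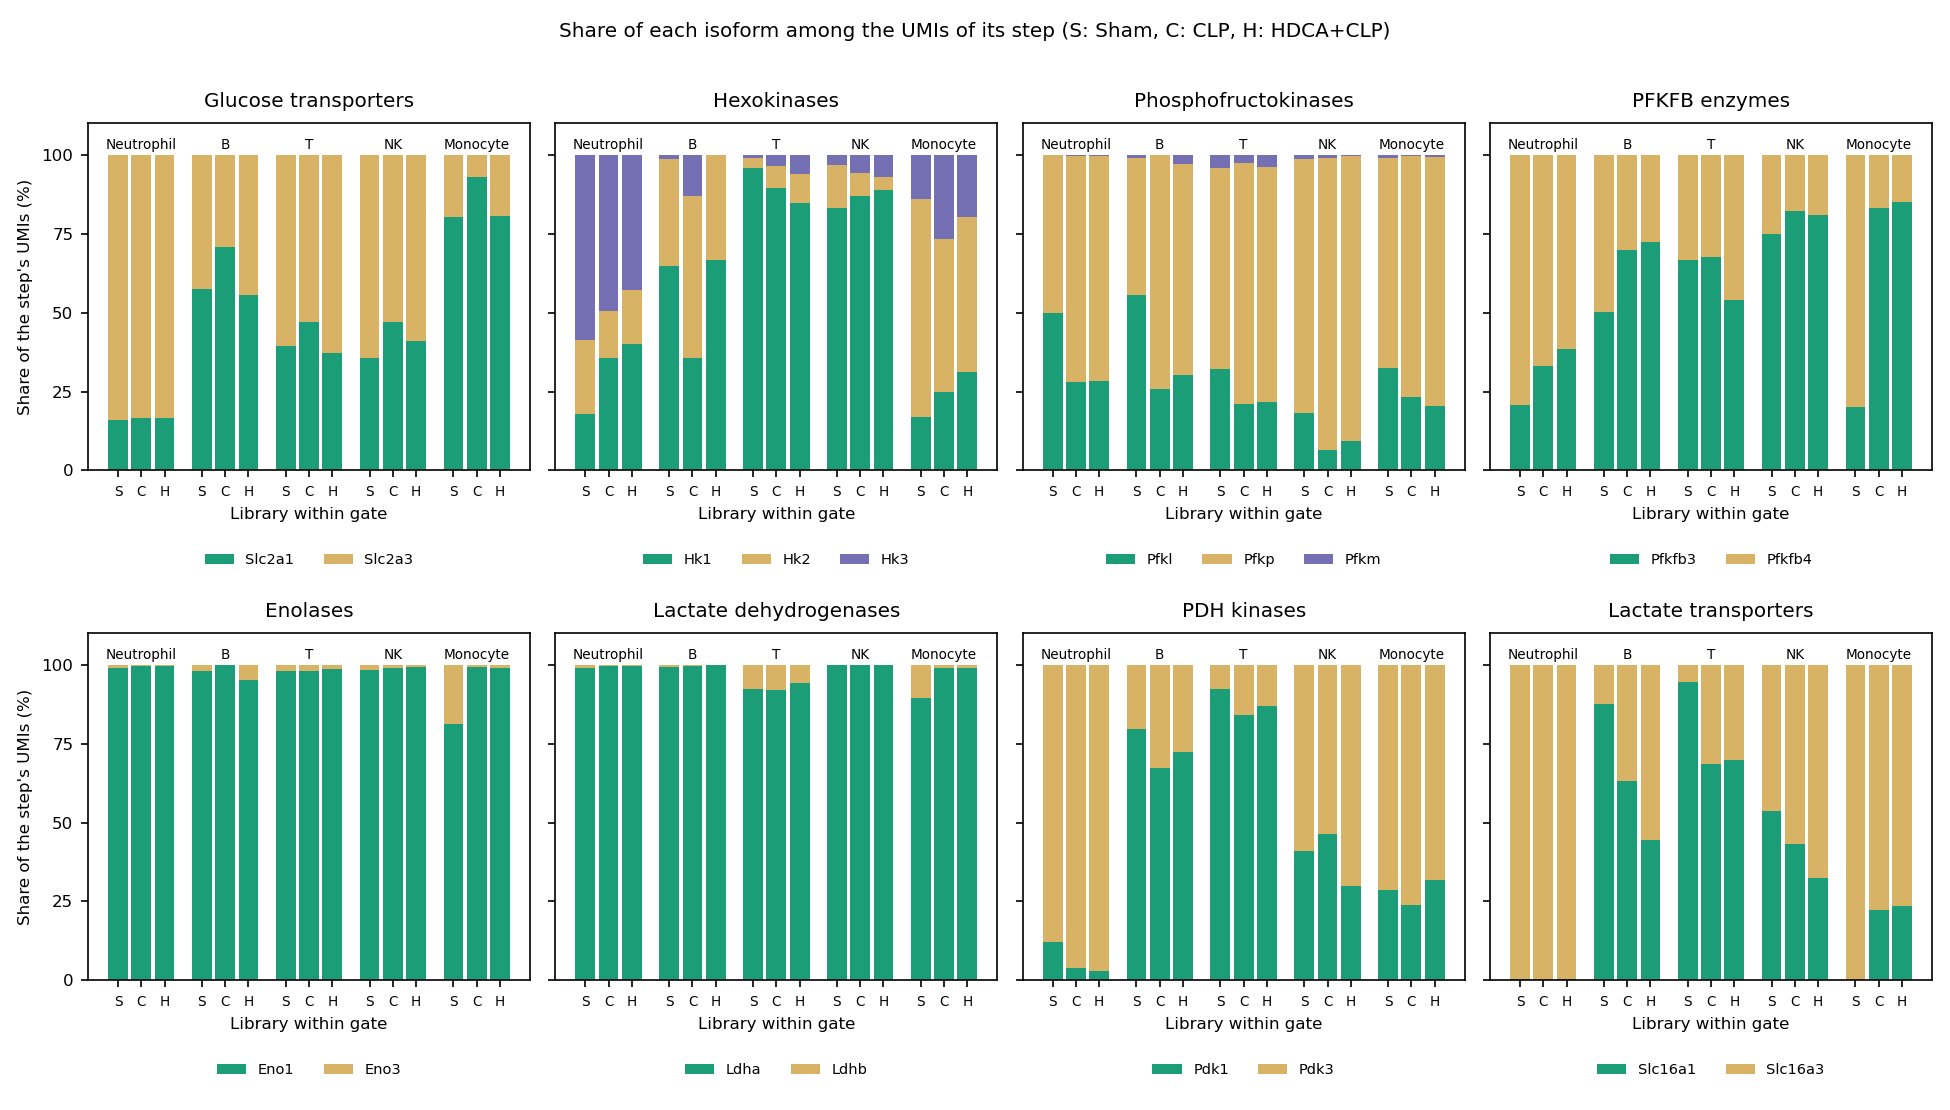
Share of each isoform among the UMIs of its step in percent (stacked bars), by gate and library (S Sham, C CLP, H HDCA+CLP). The monocyte columns show Pfkfb3 going from 20% in Sham to 83.1% in CLP, Eno3 from 18.8% to 0.617% and Ldhb from 10.6% to 0.995%, while the Slc2a3 share in neutrophils stays between 83.4% and 83.9%.

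Aldolase, which splits the sugar phosphate into trioses, was nearly all Aldoa, and Aldoc had under 50 UMIs in every gate and comparison. Aldoa was lower in neutrophils, at 449, 299 and 351 CPM (-0.59), and within 1.5-fold elsewhere. That ratio lay at the limit and was within it at -0.43 with size factors, at -0.36 with S100a8 and S100a9 left out of the totals and at -0.41 among neutrophils with under 2% granule UMIs. From there to lactate the monocyte genes were higher after CLP at nearly every step. Triose phosphate isomerase, Tpi1, stood at 120, 223 and 225 CPM (0.89). Gapdh, which makes NADH, was the most abundant member in monocytes, with 1420, 2196 and 2425 CPM (0.63). Pgk1, which returns ATP, stood at 183, 352 and 312 CPM (0.94), and Pgam1, the mutase after it, at 228, 465 and 444 (1.03). All 4 were higher in both CLP libraries than in Sham, and their intervals for CLP against Sham lay above 0. Pkm, pyruvate kinase, stood at 585.5, 1229 and 1100 CPM (1.07, interval 1.00 to 1.14).

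The same steps were less even in the other gates. In neutrophils only Pgam1 among these 5 was past 1.5-fold (158, 242 and 225 CPM, 0.61), with Tpi1 at -0.32, Gapdh at 0.20, Pgk1 at 0.03 and Pkm at -0.34. In T cells Tpi1 (24.6, 39.4 and 54.3 CPM, 0.68) and Pgam1 (41.4, 66.8 and 76.5 CPM, 0.69) were higher, with Gapdh at 0.44. Among T-gate cells that met no other gate these ratios were 0.41 for Tpi1 and 0.45 for Pgam1, and 0.58 for Pfkp, while Hif1a stood at 1.78. In NK cells Gapdh (440, 831 and 795 CPM, 0.92) and Pkm (183, 337 and 315 CPM, 0.89) were higher. In B cells Gapdh (0.94), Pgk1 (1.22), Pgam1 (1.29) and Pkm (1.38) were higher, and without the monocyte-marker cells these ratios were 0.32, 0.68, 0.68 and 0.51. Gapdh, Pgk1, Pgam1, Tpi1, Pkm and Ldha have processed pseudogenes, and the sources used here do not say how such reads were counted.

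Enolase makes phosphoenolpyruvate, and the step held the widest ratio of the gene set. Eno3, known as the muscle enolase, stood in the monocyte gate at 110, 3.42 and 5.66 CPM (-5.01, interval -5.57 to -4.50), or 312 UMIs from 265 Sham cells against 34 UMIs from 658 CLP cells. Eno1, the ubiquitous form, stood there at 477, 551 and 541 CPM, so that the enolase sum moved by -0.08. In the Sham library Eno3 lay in the monocytes that were not classical, at 312 CPM against 7.98 in the classical ones. Among those other monocytes it was at 34.1 CPM in CLP (-3.19, interval -3.89 to -2.57). The cells called other were not alike in both libraries: Ace stood in them at 668 CPM in Sham and 57.3 in CLP, Cx3cr1 at 521 and 54.2, Nr4a1 at 706 and 294, and Spn at 412.5 and 124. The genes that mark patrolling monocytes were thus lower along with Eno3, and their part in its ratio was not tested. In T cells Eno1 was lower after CLP (249, 150 and 159 CPM, -0.73), and Eno3 was too (4.84, 2.72 and 2.20 CPM, -0.83). Eno1b, a near-identical copy of Eno1, has its own counts and was not added.

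Lactate dehydrogenase A, Ldha, was higher after CLP in 4 of the 5 gates. Monocytes stood at 242, 490 and 539 CPM (1.02), neutrophils at 235, 439 and 407 (0.90, interval 0.73 to 1.08), NK cells at 220, 398 and 364.6 (0.85), and B cells at 125, 295 and 181 (1.23, and 1.13 without the monocyte-marker cells). T cells stood at 260, 267 and 334 CPM, a ratio of 0.04. Ldhb, the form that favours lactate use, was seen mainly in T cells (22, 23.1 and 20.9 CPM) and in Sham monocytes, where it stood at 28.6 CPM against 4.93 and 5.12 in the CLP libraries (-2.54, interval -3.08 to -2.01). Both monocyte subsets carried it in Sham (34.6 CPM in classical and 16.8 in the others), and among classical cells the ratio was -2.71.

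Pyruvate dehydrogenase kinases hold pyruvate back from the mitochondrion. Pdk1 was a T cell transcript, at 115, 61.1 and 69.9 CPM (-0.91, interval -1.02 to -0.80). B cells had 32.8, 22.4 and 23.8 CPM of Pdk1, and the other gates had under 11 CPM. Pdk3 was within 1.5-fold in each gate where it was measured, at 18.5 to 25.2 CPM in neutrophils and 21.8 to 23.7 in monocytes.

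Lactate leaves the cell by Slc16a3 (MCT4) and crosses in both directions by Slc16a1 (MCT1). Slc16a3 in neutrophils stood at 267, 111 and 124 CPM (-1.26, interval -1.43 to -1.09). In the whole monocyte gate it differed little (64.6, 68.5 and 82.5 CPM), but this joined a ratio of 0.93 in classical cells with one of -0.93 in the others. Those other cells had unlike marker levels in Sham and CLP, as given above for Eno3. Slc16a1 had no UMI in the 265 Sham monocytes, and had 194 UMIs in CLP (19.5 CPM) and 94 in HDCA+CLP (25.3 CPM). Set against a floor of 3 counts over the Sham gate, the CLP level was 18.4-fold higher, a value that depends on the floor. With the counting error of the 194 UMIs, the log2 ratio over that floor was 4.20 with a lower end of 3.89. In classical monocytes outside the cell cycle it had 63 UMIs in CLP and 52 in HDCA+CLP. In T cells Slc16a3 stood at 0.623, 4.69 and 5.83 CPM (2.91), and neutrophil RNA could supply 19.7% of the CLP value at the S100a8 rate. B-cell Slc16a1 was higher on 19 UMIs in CLP (1.85), with a ratio of 0.77 when cycling cells were left out.

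**Figure D4:**
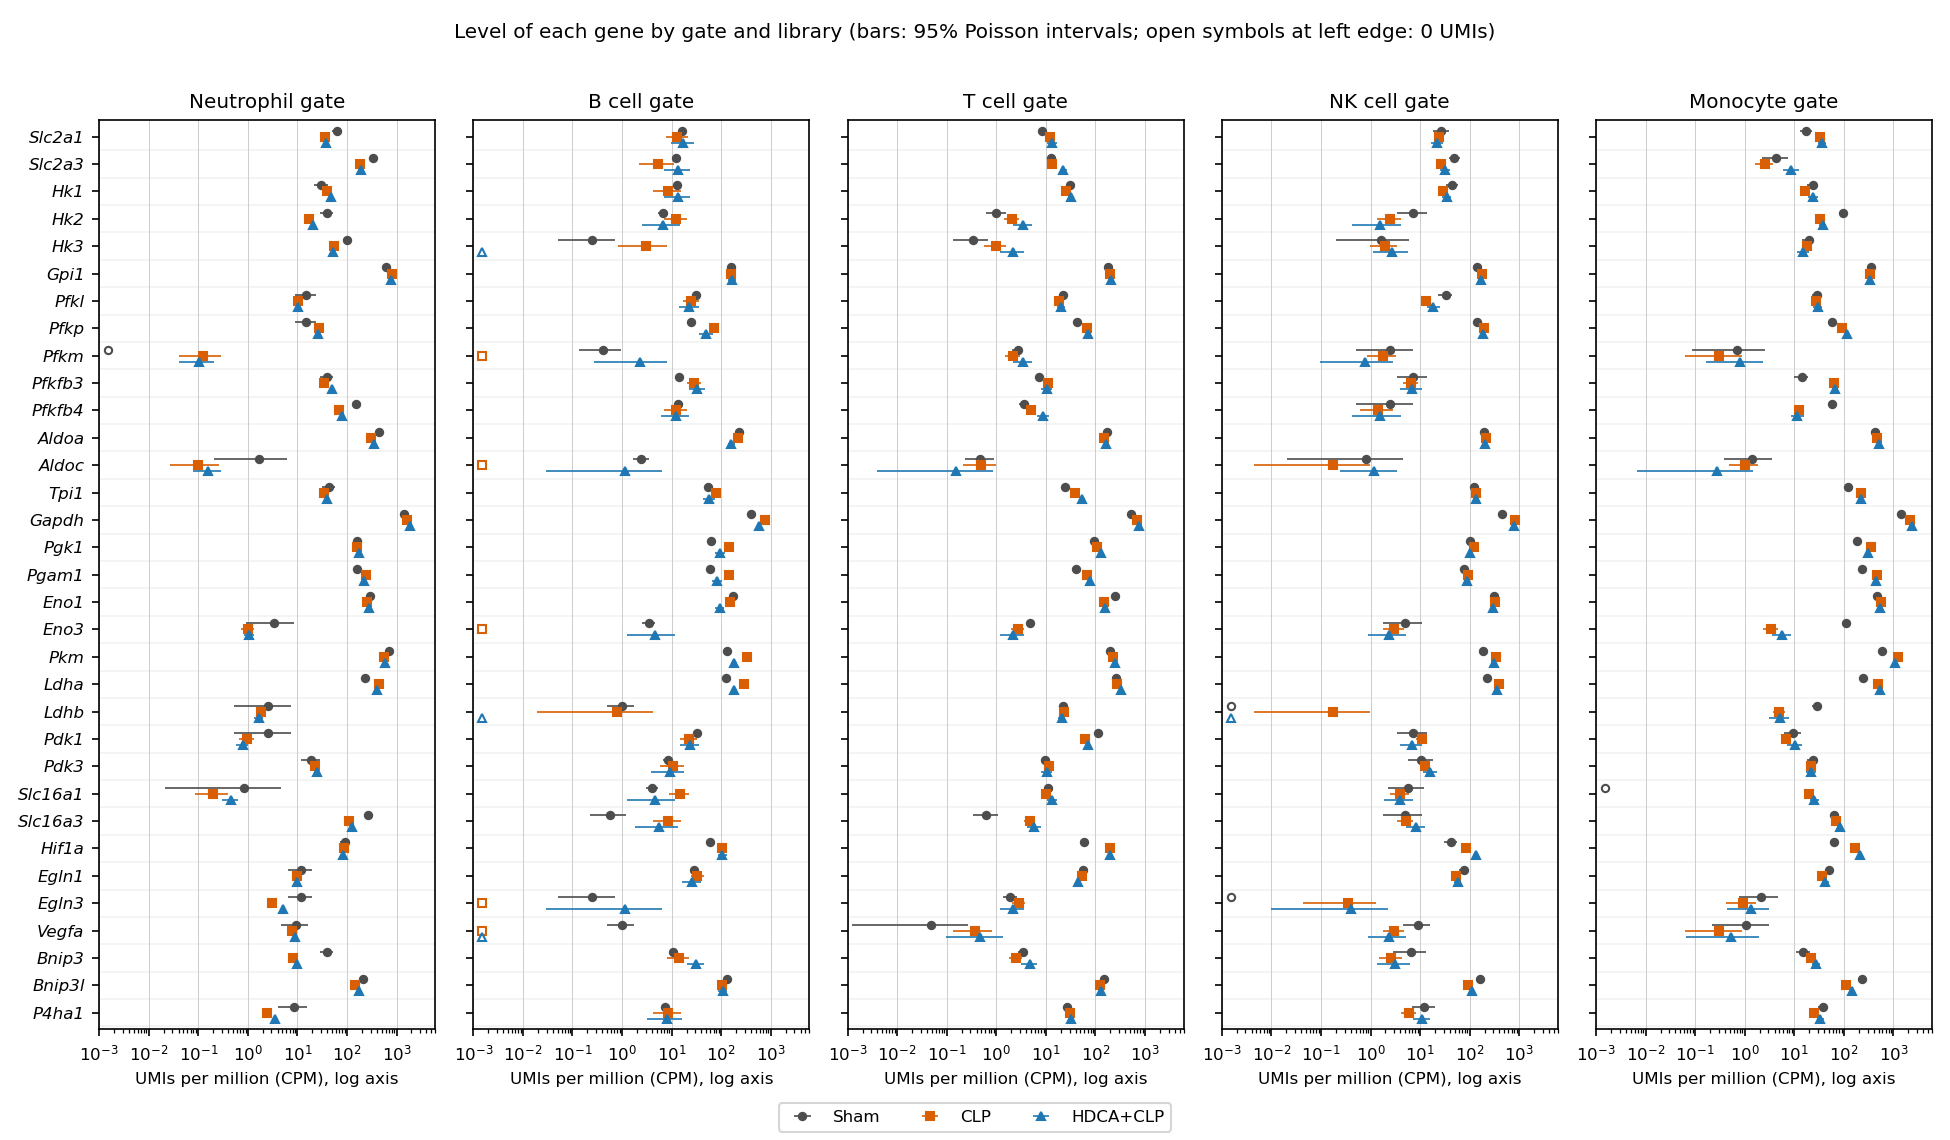
Level of each of the 33 genes in CPM (log axis) in the 5 gates, with symbols for the 3 libraries, 95% Poisson intervals as bars, and open symbols at the left edge for 0 UMIs. Gapdh is the rightmost gene in each gate, reaching 2425 CPM in HDCA+CLP monocytes, and the Sham symbol of Eno3 in monocytes (110 CPM) stands far to the right of the CLP symbols.

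Hif1a transcript was higher after CLP in 4 of the 5 gates, all but the neutrophil gate. T cells stood at 58.2, 197 and 195 CPM (1.76, interval 1.66 to 1.85). Monocytes stood at 64.6, 168 and 209.5 CPM (1.38), NK cells at 41.7, 85.2 and 133 (1.03), and B cells at 58.8, 103.5 and 105 (0.81, and 0.78 without the monocyte-marker cells). Neutrophils as a whole stood at 89.3, 88.1 and 81.3 CPM (-0.02), but those with under 2% granule UMIs stood at 107.5, 167 and 131 (0.64). The latter were 156 of the 4611 CLP cells of the gate, and their identity was not checked with other markers. Egln1, the main oxygen-sensing hydroxylase, was within 1.5-fold in each gate, with negative ratios in NK cells (-0.56), monocytes (-0.47) and neutrophils (-0.26). Egln3, a hydroxylase whose gene is itself a hypoxia target, was lower in neutrophils after CLP (11.8, 3.13 and 5.18 CPM, -1.91), from 14 UMIs in Sham. In T cells it stood at 1.92, 2.84 and 2.20 CPM.

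The hypoxia targets outside glycolysis did not follow the Hif1a transcript. Bnip3l, a mitophagy receptor, had a ratio under 0 in all 5 gates after CLP: -1.07 in monocytes (235, 112 and 147 CPM), -0.79 in NK cells (160, 92.8 and 110, and -0.51 with size factors), -0.49 in neutrophils (207, 147 and 178), -0.32 in B cells and -0.30 in T cells. Its relative Bnip3 was lower in neutrophils, at 39.6, 8.08 and 9.65 CPM (-2.29, interval -2.74 to -1.82), while monocytes stood at 15.2, 21.8 and 27.8 CPM (0.52). P4ha1, a collagen prolyl hydroxylase subunit, was lower in monocytes (37.4, 24.5 and 33.7 CPM, -0.61) and, on 10 UMIs in Sham, in neutrophils (8.42, 2.48 and 3.54 CPM, -1.77). Vegfa, an angiogenic factor, was measured in neutrophils only, at 9.26, 7.78 and 8.92 CPM.

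Within classical monocytes the following enzyme and Hif1a ratios of CLP to Sham had the same signs as in the whole gate. Those of Gapdh, Pkm, Pgam1, Pgk1 and Hif1a were smaller, and that of Gapdh was under the 1.5-fold limit. The ratios in classical monocytes were 1.05 for Ldha, 1.02 for Tpi1, 0.93 for Pgam1, 0.88 for Pkm and 0.86 for Pgk1. They were 0.53 for Gapdh, 1.13 for Hif1a, -1.67 for Hk2 and -2.15 for Pfkfb4. P4ha1 was also under the limit there (-0.36). Leaving out cycling cells as well gave 1.09 for Ldha, 1.07 for Pkm, 0.51 for Gapdh and 1.18 for Hif1a. In the other monocytes, 124 in Sham and 84 in CLP, Pfkfb3 had its widest ratio, 13.6 CPM in Sham against 228 in CLP (4.06), and Pfkp was lower (-1.09). As given above for Eno3, these cells had unlike marker levels in Sham and CLP, so both ratios compare unlike cells.

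Several neutrophil values differed with granule content. Lcn2 counts towards that content and was also high in CLP monocytes, so cells of like content need not be alike in maturity. No other markers were worked out for these subsets. Among neutrophils with under 2% granule UMIs (208, 156 and 197 cells), Slc2a3 (366, 171 and 145 CPM, -1.10), Slc16a3 (301, 151 and 125.5 CPM) and Bnip3 (46.9, 17.2 and 19.2 CPM, -1.45) were lower after CLP, as in the whole gate. Ldha (0.76) and Pgam1 (1.08) were higher there too. Other genes differed from the whole gate: the Hif1a ratio of 0.64 had an interval of 0.25 to 1.02, Tpi1 stood at 44.7 and 83.5 (0.90), and the median over the 20 measured genes was 0.26 against -0.01 for all genes. In the granule-rich CLP neutrophils (6% and over), Hif1a was at 69.1 CPM and Tpi1 at 33. Of the 20 genes measured in the granule-poor cells, 5 were higher and 6 lower, and no background share was worked out for these cells. The sign of the whole-gate neutrophil median, taken over 28 genes, therefore did not hold for the median over these 20 genes.

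T cells with Cd4 UMIs and no Cd8a or Cd8b1 UMIs, and those with the reverse, were set apart. Hif1a stood in the Cd4 cells at 67.1, 302 and 306 CPM (2.17, interval 2.01 to 2.33) and in the Cd8 cells at 43.1, 80.6 and 77.4 CPM (0.90, interval 0.69 to 1.11). Tpi1 stood at 23.9, 55.9 and 85.3 CPM in the Cd4 cells (1.23) and at 25.2, 26.8 and 47.7 in the Cd8 cells (0.09). Pdk1 was lower in the Cd4 cells (-0.91) and within 1.5-fold in the Cd8 cells (-0.50). The Cd4 and Cd8 intervals do not overlap for Hif1a and Tpi1, but they cover counting error in 1 library each, so the difference between the subsets was not tested.

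**Figure D5:**
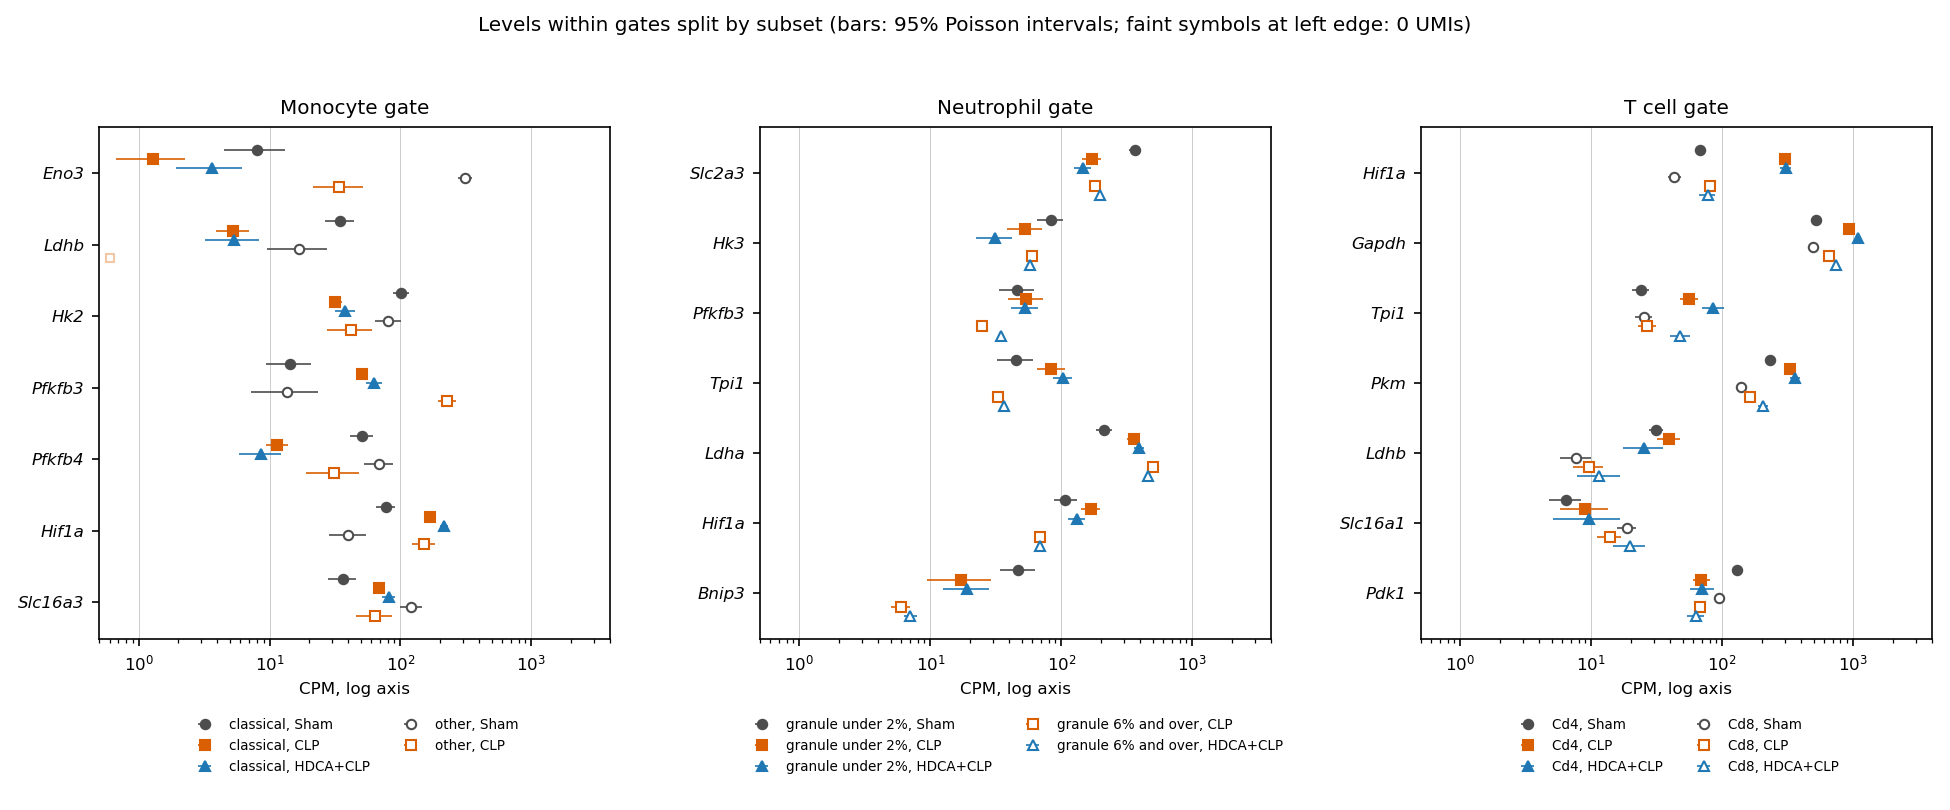
Levels in CPM (log axis) of 7 genes per gate in monocytes split into classical and other cells, neutrophils split by granule UMIs, and T cells split into Cd4 and Cd8 cells, with 95% Poisson intervals and faint symbols for 0 UMIs. Eno3 is high in the other monocytes of Sham (312 CPM) and Hif1a in the Cd4 cells of both CLP libraries (302 and 306 CPM). The other monocytes of HDCA+CLP (21 cells) are not drawn.

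HDCA+CLP stood close to CLP for most of the genes, and pairs of values are for CLP and HDCA+CLP here. In neutrophils 1 of 30 measured genes was higher and none lower, where 4.63% of all genes were higher and 3.57% lower, with a median of 0.12 against -0.03. That gene was Egln3 (3.13 and 5.18 CPM, 0.73, interval 0.43 to 1.03, and 0.41 among cells with under 6% granule UMIs), and Pfkfb3 was next at 0.53. In monocytes 2 of 29 were higher and none lower (background 5.32% and 3.55%), with a median of 0.14 against 0.06. They were Eno3 on 34 and 21 UMIs (0.73, interval -0.13 to 1.55) and Slc2a3 (2.52 and 8.63 CPM, 1.78). The 8.63 CPM of Slc2a3 was 4.43% of its neutrophil level in the same library, and S100a8 in that gate was also at 4.43% of its neutrophil level. In the CLP library the same shares were 1.36% for Slc2a3 and 3.18% for S100a8. In the Sham library S100a8 stood at 0.98% in the monocyte gate and 0.0288% in the T gate. Its share in monocytes therefore need not be free RNA alone, and the source of the Slc2a3 UMIs was not tested.

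In T cells 5 of 30 were higher and none lower (7.25% and 2.45%), with a median of 0.16 against 0.12. They were Slc2a3 (0.77), Hk2 (0.77), Pfkm (0.68), Pfkfb4 (0.78) and Bnip3 (0.94), each at under 23 CPM, and the intervals of Hk2 and Pfkm held 0. Hk2 stood at 0.06 when likely doublets were kept. In NK cells 3 of 22 were higher and 1 lower (6.26% and 2.75%), with a median of -0.05 against 0.07. Hif1a had the most UMIs of these, with 85.2 and 133 CPM (0.64, interval 0.44 to 0.85), beside P4ha1 (0.89), Slc16a3 (0.70) and, lower, Pdk1 (-0.70), the last 2 with intervals that held 0. In B cells none of 16 was higher and 5 were lower (11.5% and 11%), with a median of -0.41 against 0.02: Pkm (-0.90), Pgam1 (-0.77), Eno1 (-0.72), Ldha (-0.70) and Pgk1 (-0.62). Without the cells that carried monocyte markers, Eno1 stood at 0.02, Pkm at -0.11 and Ldha at -0.62, and the median at -0.15. With B-gate cells that met no other gate none of 13 was lower, where 10.1% of all genes were higher and 6.13% lower.

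The neighbouring pathways did not mirror the monocyte glycolysis genes after CLP. Of the 7 pentose phosphate genes, which branch off after hexokinase, each had a negative ratio in monocytes (Pgd highest at -0.11, Taldo1 lowest at -1.13), with a median of -0.42. The 8 glycogen genes had a median of -0.47, with Pygl, the phosphorylase that releases glucose units, at -1.44. The 11 tricarboxylic acid cycle genes had a median of -0.15, with Idh3a at 1.34 and Ogdh at -0.81. Against the -0.19 of all genes, the cycle median was close and the other 2 medians were lower. In neutrophils the cycle genes had a median of 0.21, with Suclg1 at 1.58 and Fh1 at -1.07, and the pentose phosphate genes -0.09, with Tkt at 0.65 and Taldo1 at -1.96. In T cells the cycle genes lay between -0.25 (Fh1) and 0.32 (Sdhb).

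Other hypoxia genes were as mixed as the members. In monocytes the 15 measured had a median of -0.02, from Egln2, a prolyl hydroxylase, at 1.93 and Mif, a cytokine, at 1.54 down to Bhlhe40 at -1.83 and Mxi1 at -2.06, the last 2 transcription factors. In neutrophils the median of 15 was -0.40, with Ankrd37 at -2.18, Mxi1 at -1.15 and Gys1 highest at 0.72. In T cells the median of 16 was 0.01, with Bhlhe40 at 4.20 and Ndrg1 at -1.04. In HDCA+CLP against CLP the medians of this list were 0.08 in neutrophils, 0.15 in T cells, -0.03 in NK cells, 0.09 in monocytes and 0.11 in B cells, where 7 of 20 genes were measured.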

How the data were processed

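The authors deposited UMI counts per gene and cell barcode, made with Cell Ranger 5.0.1 per the file headers. Seurat 4.0.6, R 4.0.3 and the build mm39 are listed, without roles, per the submitters' processing notes. The libraries were 10x 3′ v3, per the labels' protocols, from digested blood with no sort named there. The files held 7159, 11387 and 12205 barcodes (Sham, CLP, HDCA+CLP) and 42427093, 87031721 and 95178381 UMIs. Barcodes with at least 500 UMIs and 200 genes and at most 10% mitochondrial UMIs were kept, and 395, 987 and 1174 likely doublets (0.8% per 1000 barcodes, scored against simulated doublets) were removed. Cells entered the first gate met: neutrophil, S100a8 and S100a9 at 5% of UMIs or more; B, 3 or more UMIs of Cd79a, Cd79b and Ms4a1; T, 2 or more of Cd3d, Cd3e, Cd3g and Trac; NK, 2 or more of Ncr1, Klrb1c and Klra8; monocyte, 3 or more of Csf1r, Ms4a6c and F13a1. Raw counts were summed per gate and library and divided by the gate's total. Intervals are exact (Poisson for levels, Clopper-Pearson for shares, conditional binomial for ratios, 95%). Where 1 library had no UMI of a gene, 3 counts stood in its place. Values are given for genes past 1.5-fold with 50 UMIs over both libraries and for the isoforms of each step. The sums and ratios were tested on simulated counts. Python 3.11.15, NumPy 2.4.6, SciPy 1.17.1, pandas 2.3.3, scikit-learn 1.9.0 and matplotlib 3.10.9 were used. The genes, related lists and subsets were chosen with earlier results of these data known.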

Additional observations from a re-analysis of the deposited data

Results flagged for a closer look

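Slc2a1, Hk2 and Slc16a3 had ratios of CLP to Sham of at least 1.5-fold in opposite directions in different gates, and the difference between the gates was not tested. The log2 ratio of Slc2a1 was 0.92 in monocytes and -0.80 in neutrophils. The neutrophil ratio was within 1.5-fold with S100a8 and S100a9 left out of the totals. For Hk2 it was 0.89 in B cells and 1.02 in T cells against -1.21 in neutrophils and -1.54 in monocytes. For Slc16a3 it was 2.91 in T cells and -1.26 in neutrophils. The Hk2 values of the B and T gates rested on few UMIs, and that of the B gate was within 1.5-fold without cycling cells. Neutrophil RNA could supply 19.7% of the CLP value of Slc16a3 in T cells at the S100a8 rate. Among T-gate cells that met no other gate, fewer genes were higher than in the whole T gate.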

How the results depend on the processing

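No paired analysis was possible because each condition is 1 library, which also leaves no replicate to leave out. The limits are those of single libraries: surgery, vehicle, cell make-up, capture and sequencing cannot be told apart from treatment, and genes with few UMIs (Slc2a3 in monocytes, Hk2 in T cells, most members in the B gate of the CLP libraries) have wide counting intervals. Of the recomputed gene ratios, 708 stayed within the counting interval of the reported ratio, 95 left it with the same sign, and 1 changed sign. The values below are those that differed, as counts of members past 1.5-fold (higher or lower) or medians. The cause was not tested, except that other UMI minimums change which genes are counted.

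In CLP against Sham, the T gate had 2 higher with cells meeting 1 gate only, 3 with the mean over cells or without cycling cells, and 4 without monocyte-marker cells. The B gate had 1 lower with median-of-ratios size factors or with S100a8 and S100a9 left out of the totals, 0 at a minimum of 200 UMIs and 4 without cycling cells. The NK gate had 7 higher and 2 lower with size factors and, with no UMI minimum, 11 lower and a median of -0.17. With no UMI minimum monocytes had 10 lower and a median of -0.08. Neutrophils had 5 higher with S100a8 and S100a9 left out.

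In HDCA+CLP against CLP, the T median was 0.03 with no doublet removal and with size factors, 0.07 with the mean over cells and 0.02 without cycling cells. T cells had 3 higher with a 5% mitochondrial limit, with the mean over cells and without cycling cells, 1 at 200 UMIs, and 1 lower with no minimum. The NK median was -0.12 with size factors and 0.03 with the mean over cells. NK cells had 1 higher with no doublet removal and at 200 UMIs, 0 lower with a 5% limit, at 200 UMIs and without cycling cells, and 3 lower with no minimum. The B gate had 9 lower and a median of -0.82 with a 5% limit, 0 lower with 1 gate only, 1 with the mean over cells or without monocyte-marker cells (Eno1 then stood at 0.02), 3 without cycling cells, and 3 higher and 8 lower with no minimum. Neutrophils had 2 higher and 1 lower with the mean over cells, 3 higher with no minimum and 2 higher under 6% granule UMIs. Monocytes had 4 higher with the mean over cells, 0 at 200 UMIs, and 4 higher and 1 lower with no minimum and without cycling cells. The settings for monocyte-marker cells, 6% granule UMIs and S100a8 and S100a9 were chosen after the data were seen. Neutrophils under 1% granule UMIs were not compared, since 14 CLP and 19 HDCA+CLP cells met that limit against 189 in Sham.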
